A study of Mus musculus with 32 samples.

Results

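The comparison described here is that of double-mutant (DM) mice with *Kmt2a* heterozygotes (*Kmt2a*-HET) in the amygdala. It was chosen by label as the 4 DM and the 4 *Kmt2a*-HET amygdala libraries among the 32 libraries of the series, and all 53715 genes of the table were included except the spike-in rows. Both groups were adult males from an F1 cross of 129S1/SvImJ *Kmt2a* heterozygous males with C57BL/6J *Kdm5c* heterozygous females, and both carried 1 deleted copy of *Kmt2a* (exons 8 and 9 removed). DM males in addition carried the *Kdm5c* knockout allele on their single X chromosome. The comparison therefore asks what loss of *Kdm5c* changes when *Kmt2a* is already heterozygous, and the corresponding loss with intact *Kmt2a* is *Kdm5c*-KO against WT. Both alleles are germline, so every cell of the microdissected tissue carried them, and a bulk library does not distinguish fewer cells of a type from less RNA per cell.

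KMT2A and KDM5C act on the same histone mark. KMT2A adds methyl groups to lysine 4 of histone H3 and is a coactivator of transcription, whereas KDM5C removes them and is known for holding down genes that neurons do not normally use, germline genes among them. Germline genes are kept silent in the soma by repressors bound at their promoters, several of which recognise an E-box or an E2F site.

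A library held between 20014684 and 26033615 gene counts, and 22260 to 23206 genes had a count. Replicates are separate mice. The summed level of 22 choroid plexus markers set DM libraries 1 and 3 apart, at 71151 and 15882 normalised counts against 4229.5 and 3832 in DM libraries 2 and 4 and 4525 to 5142 in *Kmt2a*-HET. Results are therefore also given without these 2 libraries. *Kdm5c*, the gene removed in DM, had normalised counts of 1283, 1356, 1271 and 1225 in DM and 1672, 1426, 1634 and 1526 in *Kmt2a*-HET. All DM libraries were below all *Kmt2a*-HET libraries, but the difference did not pass the test (log2 fold change -0.29, SE 0.12, DESeq2 adjusted *p* = 0.568, edgeR adjusted *p* = 0.652). The knockout allele lacks exons 11 and 12, and a whole-gene count includes the remaining exons. *Kmt2a* was at 4173 ± 975 in DM and 4241 ± 474 in *Kmt2a*-HET (mean ± SD, n = 4).

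With *Kdm5c* lost on the *Kmt2a*-HET background, more genes were called higher than lower. At a threshold of 0.1 on the adjusted *p*, DESeq2 called 158 of 19620 tested genes (0.805%). DM levels were higher for 138 of them (0.703% of genes tested) and lower for 20 (0.102%). The edgeR quasi-likelihood test called 61 genes (0.348% of 17538), 59 higher and 2 lower, all of them among the 158. The 2 counts are best read together. On simulated counts, unchanged genes made up a clearly larger share of the DESeq2 calls than its threshold allows, whereas for edgeR this share stayed close to the threshold. The 158 genes should therefore be taken to hold more false calls than that threshold states. Without DM libraries 1 and 3, DESeq2 called 82 genes, of which 67 were among the 158. Leaving out 1 library at a time gave 90 to 197 genes, with 90 to 93 without any one *Kmt2a*-HET library, 100 without DM library 1 or 3, and 197 without DM library 4. Scaling by the ERCC spike-in rows left 6 genes, all higher. The share of lower genes depended on the fit, with 384 higher and 222 lower genes when only the 8 libraries compared were fitted and 345 and 214 with the replicate number as a block, but 175 and 46 with that block and a minimum of 10 counts in 4 libraries.

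The genes called higher were mostly expressed at low levels. Their median normalised count was 57.8 in *Kmt2a*-HET and 148 in DM, 85 of the 138 had a mean under 100 in *Kmt2a*-HET (61.6% against 38.3% of genes tested), and 86 had a log2 fold change above 1. Their median log2 fold change was 1.26, against a median of 0.00 over all genes tested. The 20 lower genes had a median log2 fold change of -0.72. In 141 of the 158 genes the DM and *Kmt2a*-HET libraries did not overlap, which held for 6.18% of all genes tested. The 158 were chosen by a test of these same libraries, which favours such genes, so this count is a description. By annotation 135 of the 158 genes were protein-coding (85.4% against 80.6% of genes tested) and 12 were lincRNAs (7.59% against 4.04%). At the threshold, *Cmya5* had an adjusted *p* of 0.0996 and *E2f6* one of 0.101.

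**Figure D1:**
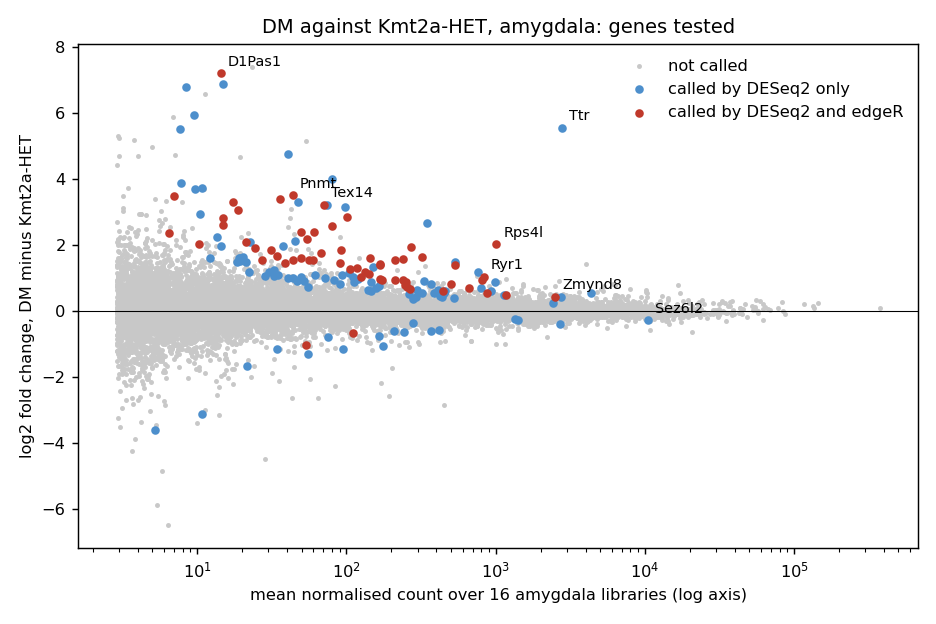
Log2 fold change (DM minus *Kmt2a*-HET) against the mean normalised count (log axis) of the 19620 genes tested in the amygdala. Red points are the 61 genes called by both tests and blue points the genes called by DESeq2 alone, and 138 of the 158 lie above 0.

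Several germline genes were called higher. Of 94 listed genes 93 were in the table and 48 had enough counts to be tested. DESeq2 called 9 higher and 0 lower (18.8% of those tested, against 0.805% of all genes), edgeR called 7, and 5 were called without DM libraries 1 and 3. This share is in part set by the count filter, which used the mean over all 16 amygdala libraries. *D1Pas1*, *Cyct*, *Fkbp6* and *Naa11* had means of 0, 1.10, 1.12 and 0 in *Kmt2a*-HET and 25.8, 12.9, 17.3 and 7.98 in DM. They were tested largely through the groups in which they were high, whereas members low throughout had no test. The median log2 fold change of the 48 was 0.23, and 35 were above 0. Of the 45 members without a test, 17 were at 0 in all 8 libraries and none had a mean above 2.87 normalised counts.

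*Tex14*, which encodes a protein of the intercellular bridges between germ cells, had the smallest adjusted *p* of all genes (chr11:87405065-87555823, mm10). Its normalised counts were 119, 137, 125 and 162 in DM and 10.4, 9.03, 11.5 and 26.9 in *Kmt2a*-HET. The groups were far apart, and *Kmt2a*-HET library 4 stood above the other 3 of its group (log2 fold change 3.22, SE 0.30, DESeq2 adjusted *p* = 1.31e-22, edgeR adjusted *p* = 0.000145). *Zar1*, known for its role in the egg-to-embryo transition (chr5:72576806-72581254), was at 122, 68.3, 81.6 and 94.8 in DM and 14.7, 11.3, 17.7 and 25.9 in *Kmt2a*-HET, with no overlap (log2 fold change 2.38, SE 0.31, DESeq2 adjusted *p* = 3.18e-11, edgeR adjusted *p* = 0.00275). *Hsf2bp*, a meiotic recombination factor (chr17:31944769-32036349), was at 75.8, 36.4, 55.7 and 102 in DM and 8.67, 11.3, 1.77 and 4.63 in *Kmt2a*-HET. It varied more among DM mice than *Tex14* did, yet the lowest DM library was above the highest *Kmt2a*-HET library (log2 fold change 3.38, SE 0.52, DESeq2 adjusted *p* = 1.88e-07, edgeR adjusted *p* = 0.0103). 

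*D1Pas1*, a testis-expressed autosomal relative of the RNA helicase gene *Ddx3x* (chr1:186967416-186970627), had 0 counts in every *Kmt2a*-HET library and 43.3, 18.2, 16.9 and 24.8 in DM. With the floor of 3 counts per library this was at least 8.6-fold higher in DM (DESeq2 adjusted *p* = 1.04e-06). *Ddx4*, the germ-cell RNA helicase Vasa (chr13:112598333-112652475), was at 86.6, 61, 75.6 and 71.1 in DM and 29.5, 24.8, 22.2 and 24.1 in *Kmt2a*-HET (log2 fold change 1.55, SE 0.35, DESeq2 adjusted *p* = 0.00278, edgeR adjusted *p* = 0.0805). *Sycp3*, a component of the synaptonemal complex (chr10:88459569-88473236), was at 41.3, 30.1, 34.8 and 62.5 and 10.4, 15.8, 6.21 and 13 (log2 fold change 1.91, SE 0.40, DESeq2 adjusted *p* = 0.00103, edgeR adjusted *p* = 0.0553). Both were separated between the groups, with a smaller margin than *Tex14*, and *Ddx4* was no longer called without DM libraries 1 and 3, at a log2 fold change of 1.39 (adjusted *p* = 0.245).

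The remaining 3 called germline genes rested on few counts. *Cyct*, the testis form of cytochrome c, was at 17.7, 10, 9.95 and 14 in DM and 1.73, 0, 2.66 and 0 in *Kmt2a*-HET. *Fkbp6*, an immunophilin required in meiosis, ranged from 3.64 to 37.7 in DM and stayed under 2 in *Kmt2a*-HET, and edgeR did not call it (adjusted *p* = 0.185). *Naa11*, an acetyltransferase gene close in sequence to *Naa10*, was at 0 in all *Kmt2a*-HET libraries but also in DM library 2, and edgeR did not call it (adjusted *p* = 0.455). Reads of *D1Pas1* and *Naa11* may be shared with their close relatives, which makes their counts uncertain.

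Upstream sequence of 3 called germline genes is printed because each stretch holds an E2F site or an E-box, motifs that germline repressors are known to bind. The 140 bases run 5′ to 3′ on the gene strand from -160 to -21 of the RefSeq start (GRCm38.p6, the assembly called mm10), and capitals mark the E2F core (GCGGGA, or TCCCGC on the other strand) and the E-box (CACGTG). The windows are chr11:87404905-87405044, chr1:186967256-186967395 and chr10:88459427-88459566, all on the plus strand.
Tex14: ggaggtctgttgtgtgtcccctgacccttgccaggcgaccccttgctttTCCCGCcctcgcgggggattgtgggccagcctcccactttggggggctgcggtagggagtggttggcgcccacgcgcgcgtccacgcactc
D1Pas1: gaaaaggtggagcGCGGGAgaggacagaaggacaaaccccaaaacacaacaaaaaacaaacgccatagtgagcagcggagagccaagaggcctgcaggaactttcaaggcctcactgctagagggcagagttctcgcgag
Sycp3: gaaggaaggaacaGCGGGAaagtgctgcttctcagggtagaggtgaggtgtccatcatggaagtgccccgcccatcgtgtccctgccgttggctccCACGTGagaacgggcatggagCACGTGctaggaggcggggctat

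In the RefSeq promoter windows of 300 bases (250 before to 50 after the start), the E2F core on either strand was found in 8 of the 9 called germline genes. Not every gene has a window, and the counts that follow cover those that do. The core was found in 17 of 35 germline genes that were tested and not called and in 29 of 98 genes called higher. It was found in 36.5% of 13270 tested genes and in 19.98% of all 32851 windows. The E-box was found in 3 of the 9, in 15 of the 35, in 11 of the 98, in 10.9% of tested genes and in 7.15% of all windows. The *Tex14* and *D1Pas1* stretches hold an E2F core without an E-box, and that of *Sycp3* holds both. These matches describe letters and not bound sites.

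**Figure D2:**
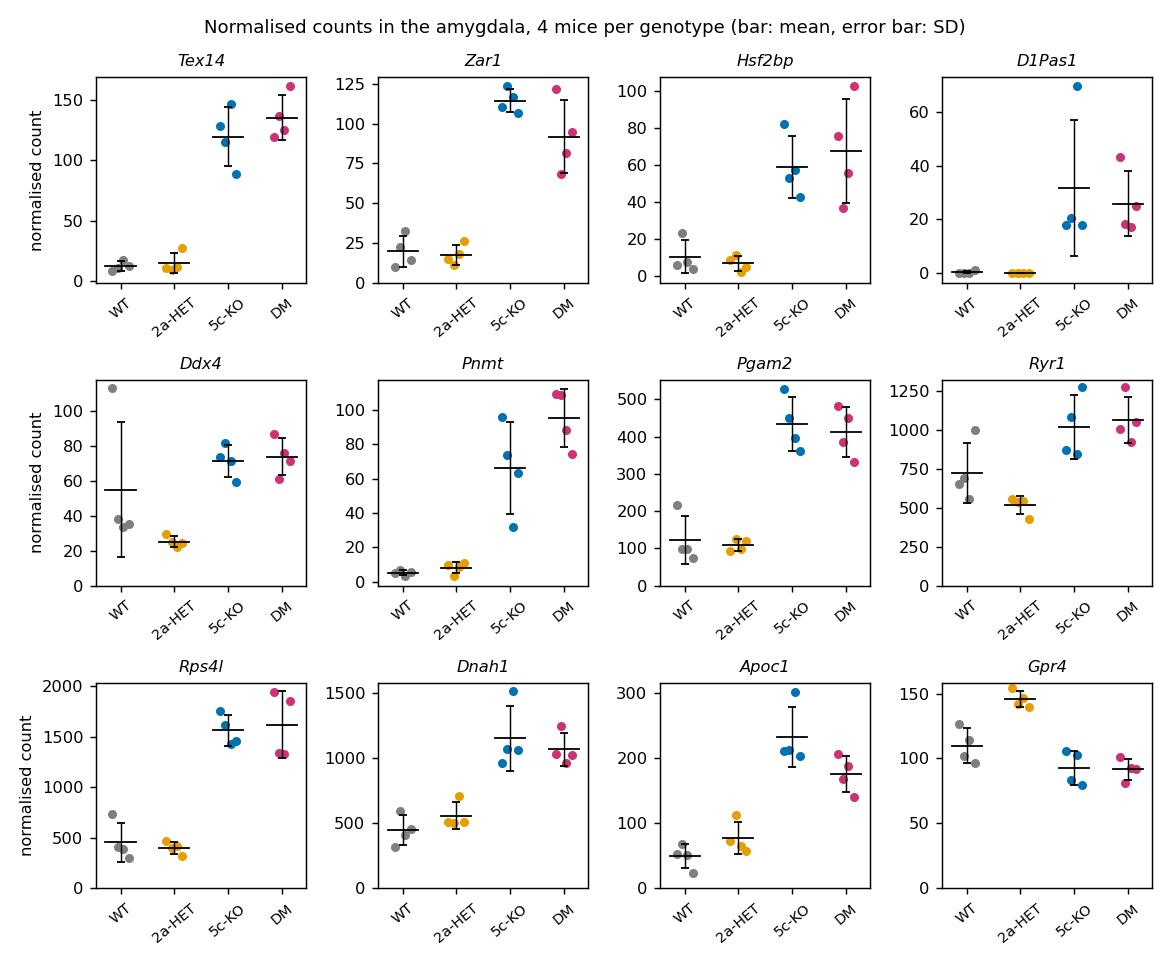
Normalised counts of 12 genes in the amygdala of WT, *Kmt2a*-HET (2a-HET), *Kdm5c*-KO (5c-KO) and DM mice, with 1 point per mouse, the mean as a bar and the SD as error bars (n = 4). In 11 genes the DM points lie above the *Kmt2a*-HET points, as for *Tex14*, and in *Gpr4* they lie below.

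Genes outside the germline list were among the strongest. *Pnmt*, the enzyme that turns noradrenaline into adrenaline (chr11:98386450-98388181), was at 109, 108, 88.5 and 74.3 in DM and 9.54, 3.39, 8.87 and 11.1 in *Kmt2a*-HET. Every DM library exceeded every *Kmt2a*-HET library by a wide margin (log2 fold change 3.51, SE 0.39, DESeq2 adjusted *p* = 1.22e-15, edgeR adjusted *p* = 0.000243). It was the only called gene of 13 tested catecholamine genes (7.69%, against 0.805% of all genes). Their median log2 fold change was -0.18, and *Maoa*, which encodes a monoamine oxidase, was at -0.04. *Rps4l*, a ribosomal protein S4-like locus annotated as a transcribed pseudogene (chr6:148354656-148355598), was at 1948, 1345, 1334 and 1859.6 in DM and 466, 399, 416 and 317 in *Kmt2a*-HET (log2 fold change 2.02, SE 0.22, DESeq2 adjusted *p* = 3.05e-16, edgeR adjusted *p* = 0.000447). Its count may be shared with other *Rps4* copies. 

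The other genes among the 15 with the smallest adjusted *p* had log2 fold changes from 1.28 (*BC024139*) to 3.05 (*Tcf15*, a basic helix-loop-helix factor of somite development), apart from the genes given above. They included *Tcfl5* (2.58), a helix-loop-helix factor of the testis, *Amn* (1.55), which anchors the cubilin receptor for vitamin B12 uptake, *Scarf2* (1.63), a scavenger receptor-like membrane protein, *Gm10432* (1.40) and *Col9a3* (1.41), a collagen chain. *Col9a3* and *Tcfl5* overlap on opposite strands, and the strand setting of the counting is not stated. *Col9a3* was at 1484, 631, 702 and 688 in DM and 391, 305, 311 and 316 in *Kmt2a*-HET, with DM library 1 far above the others, and it remained called without DM libraries 1 and 3 (adjusted *p* = 5.41e-05). All 15 were called by edgeR and without these 2 libraries.

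Genes of striated muscle formed a further group, from a list drawn up after these values had been seen, so its count is a description. DESeq2 called 10 of 59 tested members higher and 0 lower, which is 16.9% against 0.805% of all genes, and the median log2 fold change of the 59 was 0.19. The edgeR test called 6, and 6 were called without DM libraries 1 and 3. *Ryr1*, the calcium release channel of the sarcoplasmic reticulum (chr7:29003344-29125179), was at 1006, 1277, 925 and 1053 in DM and 559, 536, 546 and 429 in *Kmt2a*-HET (log2 fold change 1.04, SE 0.18, DESeq2 adjusted *p* = 6.03e-06, edgeR adjusted *p* = 0.0124). *Pgam2*, the muscle phosphoglycerate mutase (chr11:5801640-5803733), was at 481, 386, 451 and 331 and 93.7, 124, 97.5 and 119.5 (log2 fold change 1.92, SE 0.25, DESeq2 adjusted *p* = 1e-10, edgeR adjusted *p* = 0.00282). The groups did not overlap in either gene. *Jsrp1*, a protein of the junctional sarcoplasmic reticulum, *Nrap*, *Myo18b* and *Acta1* (skeletal actin) were called by both tests, at 1.84, 1.54, 0.97 and 1.56. *Sln*, *Cmya5*, *Myom3* and *Myh7b* were called by DESeq2 and not by edgeR, and the first 2 overlapped between the groups. None of these 4 was called without DM libraries 1 and 3, where the log2 fold change of *Sln* went from 1.95 to 0.89 and those of *Cmya5*, *Myom3* and *Myh7b* were 1.08, 0.82 and 0.45 against 1.04, 0.81 and 0.44 with all libraries.

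Of 48 tested cilia and axoneme genes only *Dnah1*, a dynein heavy chain of the axoneme (chr14:31260375-31323896), was called (2.08%, against 0.805% of all genes). It was at 1036, 1249, 965 and 1023 in DM and 513, 505, 711 and 513 in *Kmt2a*-HET, and *Kmt2a*-HET library 3 was nearest to DM (log2 fold change 0.93, SE 0.19, DESeq2 adjusted *p* = 0.000297, edgeR adjusted *p* = 0.0337). The median of the list was 0.40 with all libraries and -0.02 without DM libraries 1 and 3. *Foxj1*, the regulator of motile cilia, was at 0.42 and did not pass the test. *Siglech*, a microglial lectin, was the only called gene of 20 microglial markers (5%, against 0.805% of all genes). Its log2 fold change was 0.65 (DESeq2 adjusted *p* = 0.0019, edgeR adjusted *p* = 0.0562), and it was not called without DM libraries 1 and 3 (0.63, adjusted *p* = 0.101). *Csf1r* and *Cx3cr1* were at 0.12 and -0.05. *Apoc1*, an apolipoprotein gene next to *Apoe*, was at 207, 169, 188 and 141 in DM and 73.7, 113, 65.6 and 57.5 in *Kmt2a*-HET (log2 fold change 1.19, SE 0.26, DESeq2 adjusted *p* = 0.00154, edgeR adjusted *p* = 0.0805). *Apoe* itself was at 0.05, and *Apoc1* was not called without DM libraries 1 and 3 although its log2 fold change was still 1.01 (adjusted *p* = 0.304).

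Fewer genes were called lower in DM. In all 20 lower genes the groups did not overlap, which their choice by a test of these libraries favours. The edgeR test called only *Gpr4* and *Vipr2*, and 3 of the 20 remained without DM libraries 1 and 3. The median log2 fold change of the 20 was -0.76 without these libraries, against -0.72 with them, so that calls were lost with 2 DM libraries while the changes stayed about as large. *Gpr4*, a proton-sensing receptor (chr7:19212538-19224174), was at 101, 81.1, 92.5 and 91.5 in DM and 154, 142, 146 and 139.9 in *Kmt2a*-HET (log2 fold change -0.67, SE 0.15, DESeq2 adjusted *p* = 0.00323, edgeR adjusted *p* = 0.0542). *Vipr2*, a receptor for vasoactive intestinal peptide, was at 40.3, 40.1, 36.8 and 33.4 and 57.2, 93.7, 55 and 106, and 2 of the *Kmt2a*-HET libraries lay well above the other 2 (log2 fold change -1.04, SE 0.26, DESeq2 adjusted *p* = 0.0155, edgeR adjusted *p* = 0.0999). *Sez6l2*, a neuronal membrane protein with the smallest DESeq2 adjusted *p* among the lower genes, fell by 0.267 on the log2 scale (SE 0.06, DESeq2 adjusted *p* = 0.0018, edgeR adjusted *p* = 0.198). The rest of the 10 lower genes with the smallest adjusted *p* were called by DESeq2 alone. They were *Chst8* (-0.60), a sulfotransferase of glycoprotein hormones, *Cyp51* (-0.26), an enzyme of cholesterol synthesis, *Plxdc1* (-0.59) and *Folh1* (-0.65), a peptidase that releases glutamate. Also among them were *Tbx3* (-1.15), a T-box factor, *Gjb2* (-0.76), a connexin, and *Pth2r* (-1.17). *Calb1*, the calcium-binding protein calbindin, was the only called member of the dentate gyrus list (-0.40, 1 of 18 tested). *Calcr*, the calcitonin receptor, was that of the imprinted list (-1.06, 1 of 46). *Gpr17*, a receptor of the oligodendrocyte lineage, was that of the oligodendrocyte precursor list (-0.29, 1 of 10). With 0.805% of all genes called, 1 call says little about a list. The edgeR test called none of the 3 (adjusted *p* = 0.23, 0.328 and 0.29).

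Choroid plexus genes were called higher through 2 libraries. DESeq2 called 9 of 22 tested markers higher (40.9%, against 0.805% of all genes), with a median log2 fold change of 3.13 over the 22. The edgeR test called 0, and without DM libraries 1 and 3 DESeq2 called 0 and the median was -0.32. *Ttr*, the thyroid hormone carrier transthyretin and the defining gene of this tissue, was at 35472, 99.3, 5984 and 30.1 in DM and 226, 165, 158 and 334 in *Kmt2a*-HET. DM libraries 1 and 3 were high and DM libraries 2 and 4 were below all *Kmt2a*-HET libraries. The other called members (*Kl*, *Kcnj13*, *F5*, *Mfrp*, *Aqp1*, *Slc4a5*, *Tmem72* and *Steap1*) were likewise highest in DM library 1 and next in DM library 3. The part of choroid plexus tissue in the other called genes was not tested. Of the 158 genes 149 are outside this list, but that does not make them free of its pattern. *Col9a3*, outside it, was highest in DM library 1 in the amygdala. In the hippocampus it was at 473, 1184, 433 and 1249 in DM, high in DM libraries 2 and 4, where choroid plexus markers were high too.

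No member of the striatal, hypothalamic or thalamic marker lists was called in DM against *Kmt2a*-HET, and the summed levels overlapped between the groups. The lists do not hold every gene of these regions. Outside them lie the called lower genes *Sox14* (-3.12, DESeq2 adjusted *p* = 0.0650, edgeR adjusted *p* = 0.283) and *Nr0b1* (-3.61, DESeq2 adjusted *p* = 0.0586). *Tbx3* and *Calcr* are outside them too, and the tissue source of these genes was not tested. For 19 striatal markers the summed level was 71196, 93682, 71921 and 46684 in DM and 68829, 39383, 32385 and 31030.1 in *Kmt2a*-HET, with a median log2 fold change of 0.75 and 18 of 19 genes above 0. For 23 tested hypothalamic markers it was 10442, 10120.0, 9849 and 18874 in DM and 15978, 15331, 17762 and 14283 in *Kmt2a*-HET, the median was -0.77 and 0 of 23 were above 0. DM library 4 had the highest hypothalamic level of the 8 and the other 3 DM libraries were below all *Kmt2a*-HET libraries. For 16 thalamic markers the level was 7307 to 15180.0 in DM and 14292 to 18284 in *Kmt2a*-HET (median -0.54, and -1.01 without DM libraries 1 and 3). The 4 WT libraries alone spanned 19314 to 94937 for striatal, 7323 to 17575 for hypothalamic and 3866 to 21049.5 for thalamic markers. The 20 amygdala markers had overlapping sums of 34599 to 39533 and 32605 to 43340.4 and a median of -0.08. The part of dissection in the called genes was not tested.

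**Figure D3:**
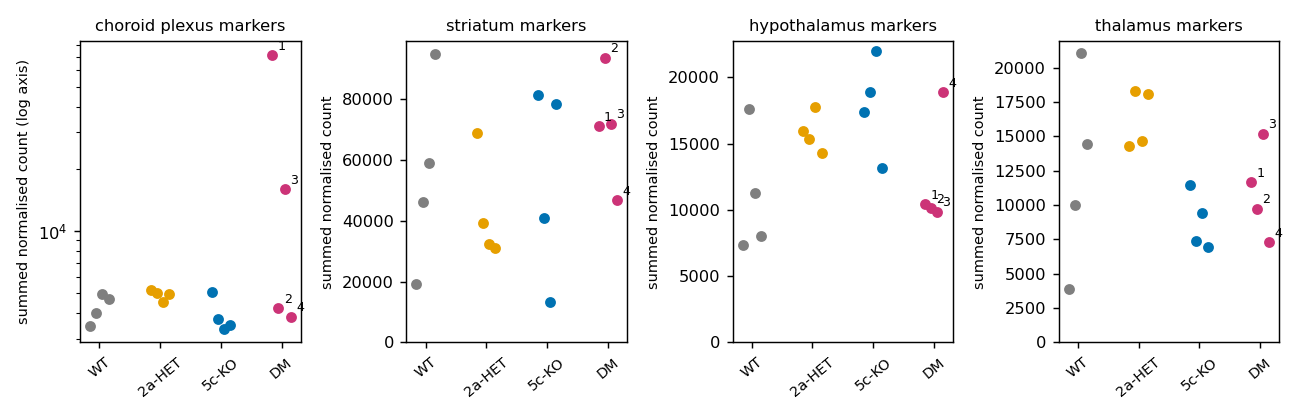
Summed normalised counts of choroid plexus (log axis), striatal, hypothalamic and thalamic markers in each amygdala library by genotype, with 1 point per mouse and the DM libraries numbered. Only DM libraries 1 and 3 stand above the rest for choroid plexus, and DM libraries 1 to 3 are below the *Kmt2a*-HET libraries for hypothalamic markers.

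Several lists close to the biology of the 2 enzymes held no called gene, where 0.805% of all genes were called and lists this short may hold none. These were the 23 writers and erasers of H3K4 methylation (median log2 fold change -0.03, DM *Kdm5c* included), 24 silencers of germline genes (0.00), 44 glutamate genes (0.05), 31 GABA genes (-0.03) and 32 activity-induced genes (0.15, but -0.24 without DM libraries 1 and 3). The 42 tested neuropeptide genes had a median of -0.30, with 8 above 0, and some of them are also hypothalamic markers. The 10 neuroactive ligand and receptor genes that the study picked from these mice had a median of -0.17, and that list is not independent of these samples. Oligodendrocyte, astrocyte, endothelial and mural, blood and pituitary markers had medians of -0.06, -0.01, 0.13, 0.02 and -0.52, and of -0.36, -0.10, 0.13, -0.13 and -0.38 without DM libraries 1 and 3. Of these, the pituitary sums did not overlap, at 3512 to 4363 in DM and 4861 to 5377 in *Kmt2a*-HET. *Chga* alone had means of 3746 and 4617 of the mean sums of 3904 and 5023, and *Pomc*, next by level, had 99.9 and 332. The astrocyte sums did not overlap either, at 139608 to 166310.0 in DM and 129961 to 139058 in *Kmt2a*-HET. There *Slc1a2*, the member with the highest count, had means of 67061 and 54384. *Aldoc* and *Gfap* were at a log2 fold change of -0.02 and *Slc1a3* at 0.13. The part of these markers in the called genes was not tested. A count of 0 does not show that these genes were equal in the 2 groups.

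**Figure D4:**
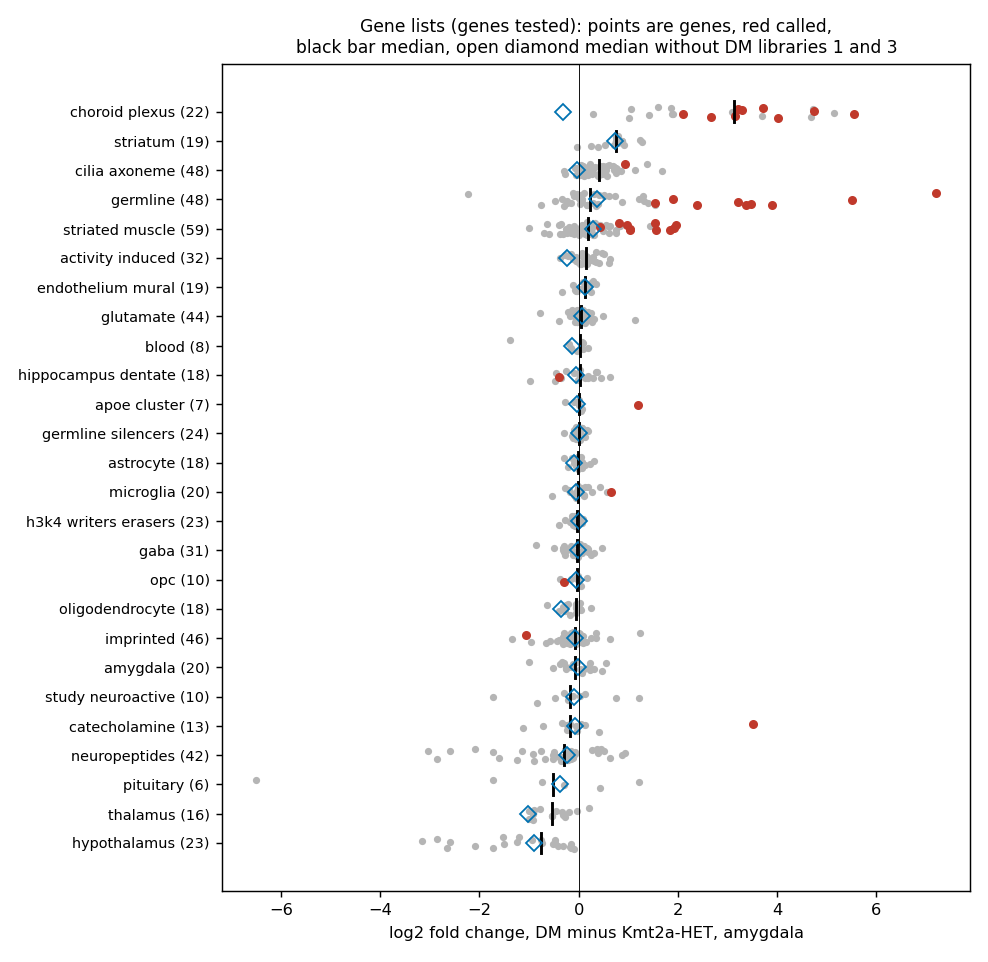
Log2 fold change (DM minus *Kmt2a*-HET) of each tested gene in 26 lists, with the number of genes tested in brackets, called genes in red, the list median as a black bar and the median without DM libraries 1 and 3 as an open diamond. The choroid plexus median moves from 3.13 to -0.32, while the germline median goes from 0.23 to 0.36.

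The same loss of *Kdm5c* with intact *Kmt2a* (*Kdm5c*-KO against WT, which shares no library with DM against *Kmt2a*-HET) gave similar changes for many of these genes. Of the 158 genes 140 had the same sign there, against 52.7% of all genes tested, and 65 were called in the same direction and 0 in the opposite direction (0.756% of 19056 genes were called in that comparison). These 65 were 41.1% of the 158 and 45.1% of the 144 genes called in *Kdm5c*-KO. Among the higher genes 64 of 138 were called in *Kdm5c*-KO and their median log2 fold change was 0.83 there, and among the lower genes 1 of 20 was called and the median was -0.24. For *Tex14* the levels were 119.9 ± 24.3 in *Kdm5c*-KO and 12.1 ± 3.92 in WT, and for *Pnmt* 66.3 ± 26.7 and 5.18 ± 1.5 (mean ± SD, n = 4). Of the 9 called germline genes 6 were also called in *Kdm5c*-KO. *Ddx4* was not, and its WT library 1 was far above the other WT libraries.

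**Figure D5:**
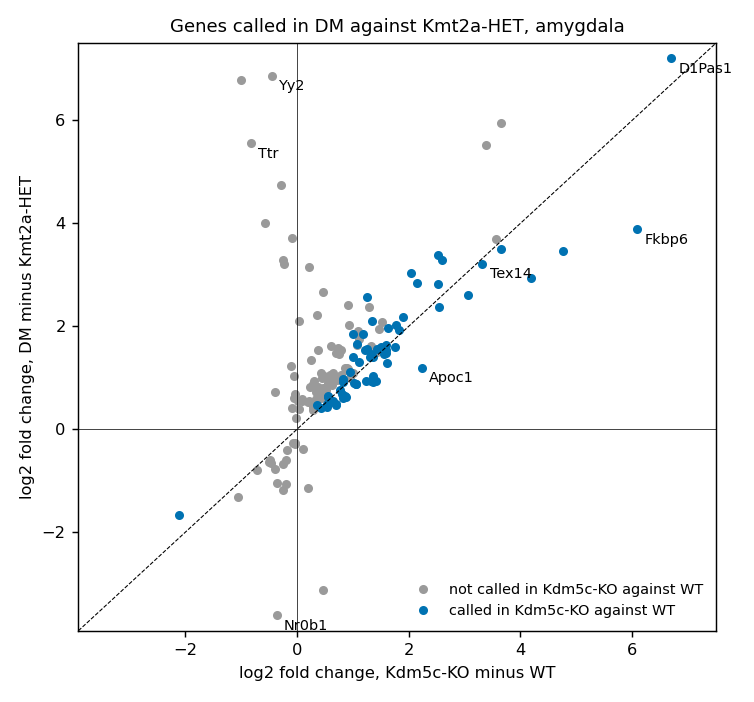
Log2 fold change in DM minus *Kmt2a*-HET (vertical axis) against *Kdm5c*-KO minus WT (horizontal axis) for the 158 genes called in the former, with the line of equal change dashed. The 65 genes in blue were called in both, and choroid plexus genes such as *Ttr* are high on the vertical axis alone.

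Whether the change depended on *Kmt2a* was tested as the interaction. DESeq2 called 1 gene of 30355 (0.00329%), *Hmx2*, a homeobox gene, and edgeR called 0 (at an unadjusted *p* under 0.05 they had 857 and 665 genes). *Hmx2* was at 6.89, 11.8, 0.995 and 14 in DM and 26, 23.7, 21.3 and 25 in *Kmt2a*-HET, and at 26.7 ± 12.4 in *Kdm5c*-KO and 4.01 ± 3.86 in WT (mean ± SD, n = 4). Its log2 fold change was -1.51 in DM minus *Kmt2a*-HET, which did not pass the test (adjusted *p* = 0.432 by DESeq2), and 2.74 in *Kdm5c*-KO minus WT (adjusted *p* = 0.00692 by DESeq2; interaction -4.25 on the log2 scale, DESeq2 adjusted *p* = 0.0429, edgeR adjusted *p* = 1). The call was lost in 10 of 16 fits that left out 1 library. The number of interaction calls ranged from 0 to 68 over these fits, with 68 without WT library 2, and was 85 with the replicate number as a block. *Hmx2* is 1 of the 24 hypothalamic markers, whose summed level had means of 12321 in DM against 15839 in *Kmt2a*-HET, and of 17859.7 in *Kdm5c*-KO against 11061 in WT, the same order of groups within each contrast as *Hmx2*. The part of hypothalamic tissue in this call was not tested.

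In the hippocampus of the same mice DM against *Kmt2a*-HET gave 117 called genes (0.606%). Of the 158 amygdala genes 142 had the same sign in the hippocampus, against 61.9% of all genes tested, and 45 were called there too, which is 28.5% of the 158 and 38.5% of the 117. All 45 were higher genes, and 31 of them were also called in *Kdm5c*-KO against WT in the amygdala. All 9 called germline genes were above 0 in the hippocampus. So were the 9 called choroid plexus genes, but through other mice, since the summed choroid plexus level in the hippocampus was 3376, 50753, 3296 and 54799 in DM and 6554, 4223, 5007 and 2753 in *Kmt2a*-HET, high in DM libraries 2 and 4. Outside that list, which leaves out genes such as *Col9a3* that were also high in DM libraries 2 and 4 there, 133 of 149 genes had the same sign and 44 were called. The direct test of the region difference called 5 genes (0.0156% of 32039), all with a smaller change in the amygdala, and edgeR called 2.

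*Ido2*, an enzyme of tryptophan breakdown, showed the region difference most clearly. In the amygdala it was at 27.6, 32.8, 28.8 and 33.4 in DM and 31.2, 36.1, 29.3 and 25 in *Kmt2a*-HET, with overlap. In the hippocampus it was at 212, 202, 186 and 168 and 19.7, 36.2, 30.8 and 23.3 (region difference -2.79, SE 0.41, DESeq2 adjusted *p* = 2.68e-07). *Dnah1* rose in both regions and less in the amygdala (-1.27, adjusted *p* = 0.00126 by DESeq2). *Pnck*, a calmodulin-dependent kinase gene, *6330403K07Rik* and *Wdr95* were called in the hippocampus and not in the amygdala, with region differences of -1.002, -0.87 and -2.98. With the mouse as a block, since both regions come from the same mice, *Wdr95* was no longer called (adjusted *p* = 0.294 by DESeq2, 0.0609 without the block) at a region difference of -3.05, and the other 4 were.

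Around *Kdm5c* on the X chromosome, 0 of 43 tested genes within 5 Mb were called by DESeq2 or edgeR, with 3 at an unadjusted *p* under 0.05 and a median log2 fold change of -0.03. On the whole X chromosome 4 of 626 tested genes were called (0.639%, against 0.812% on the autosomes). These were *BC065397*, *Xlr5a*, *Yy2* and *Nr0b1*, named because they are so few. *Yy2* had 0 counts in every *Kmt2a*-HET library and 19.7, 33.7, 27.9 and 0 in DM, so that DM library 4 did not differ from *Kmt2a*-HET, while WT was at 22.6 ± 11.2. It lies within *Mbtps2* on the same strand and edgeR did not call it (adjusted *p* = 0.189).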

How the data were processed

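The amygdala and hippocampus of adult male mice were profiled by directional oligo-dT RNA-seq with ERCC spike-in RNA, with 4 mice per genotype. Per the submitters' processing notes and the methods of the study, the authors mapped reads to mm10 with STAR 2.5.3a, kept unique reads, removed duplicates and counted with featureCounts of Subread 1.5.0. The deposited tables nevertheless hold expected counts that are in part not whole, so the estimator, its strand setting and the annotation release are not given in the sources used here. The values were rounded. The table held 53715 genes and 92 ERCC rows, and 53620 genes matched a GENCODE M21 symbol.

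Genes were tested with DESeq2 1.42.0 (Wald test, R 4.3.3) with a threshold of 0.1 on *p* after Benjamini-Hochberg adjustment, the tool and threshold of the study. All 16 amygdala libraries were fitted together with genotype as the term, a choice made here. The region difference used all 32 libraries in 8 groups. Normalised counts are counts divided by median-of-ratios size factors. Both DESeq2 and edgeR 4.0.16 (quasi-likelihood, TMM) were checked on simulated counts with known changes. Fold changes were recovered, but unchanged genes made up a larger share of the DESeq2 calls than its threshold allows. For edgeR this share stayed close to the threshold, and edgeR values are therefore given beside the DESeq2 values. Ratios against a group at 0 used a floor of 3 counts per library, which covers counting error only (0.115 to 0.150 CPM).

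Named genes were *Kdm5c* and *Kmt2a*, the 15 higher and 10 lower called genes with the smallest adjusted *p*, called members of the lists, up to 4 members of a list by level, and called genes of the interaction and region tests. *Yy2*, the other X-linked called genes, *Sox14*, *E2f6* and some list members were named after their values were seen. The comparison, the lists and the tests were chosen with earlier results of these data known. Lists were described by counts and medians. Alternatives were another test, other scaling, low-count and threshold settings, fewer libraries, a block for the replicate number and leaving out each library. The fit without DM libraries 1 and 3 was added after the data were seen. The hippocampal transcript table was not used here.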

Additional observations from a re-analysis of the deposited data

Results flagged for a closer look

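In 178 groups of 4 mice (63 genes and 26 list sums in DM and *Kmt2a*-HET), the highest or lowest value stood apart from the other 3 in 20, where chance flags about 1 in 20 groups. In DM library 1 these were *Col9a3* (1484 normalised counts), *Ttr* (35472) and *Aqp1* (487). In DM library 2 they were *Chst8* (252), *Myo18b* (251) and the summed glutamate list (288795), in DM library 3 the astrocyte list (166310) and in DM library 4 the hypothalamic list (18874).

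Among *Kmt2a*-HET libraries, number 1 stood apart for *Col9a3* (391), *Folh1* (284), *Pth2r* (36.4), *Calcr* (217) and the lists of H3K4 writers and erasers (37595), dentate gyrus (15185) and pituitary (5377). Library 2 stood apart for *Sln* (10.2) and *Wdr95* (20.3), library 3 for *Dnah1* (711) and *Acta1* (219.9), and library 4 for *Tex14* (26.9).

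The DM minus *Kmt2a*-HET difference departed from *Kdm5c*-KO minus WT for *Hmx2* (-4.25 on the log2 scale). It differed between amygdala and hippocampus for *Ido2* (-2.79), *Dnah1* (-1.27), *Pnck* (-1.002), *6330403K07Rik* (-0.87) and *Wdr95* (-2.98), all by a DESeq2 test of the difference itself.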

How the results depend on the processing

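The 158 called genes became 61 with edgeR, 606 with only the 8 libraries compared (384 higher and 222 lower), 290 with a term for libraries numbered 1 (212 and 78), 82 without DM libraries 1 and 3, and 90 to 197 when 1 library was left out. ERCC size factors moved the median log2 fold change of the genes tested to -0.33 and left 6 calls, 6 higher and 0 lower, against 138 and 20. With the replicate number as a block there were 559 calls (345 and 214), 221 with a minimum of 10 counts in 4 libraries as well (175 and 46), and 76 with edgeR. Same-numbered DM and *Kmt2a*-HET libraries deviated together with correlations of 0.37, 0.08, -0.09 and -0.05, so the number as a whole did not meet the limit of 0.1 for a pairing, and not every library correlated best with its own number. The libraries numbered 1 did deviate together, with the highest activity-induced sum of each genotype (27000 in DM, 25736 in *Kmt2a*-HET, 26998 in WT, and 21936 in *Kdm5c*-KO). The 1 interaction call became 0 with edgeR, 85 with the replicate block and 0 to 68 when 1 library was left out, with 68 without WT library 2. The 5 region differences became 2 with edgeR, 7 with the mouse as a block (4 of the 5 and, named after their values were seen, *Tnxb*, *Cacng6* and *Gaa*) and 2 to 5 when 1 mouse was left out. The causes were not tested.

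Of 56 called named genes 27 were called by edgeR, and 22 were called in every setting that gave them a value except ERCC scaling. Signs turned without DM libraries 1 and 3 for *Ttr* (-1.77), *F5* (-0.30), *Aqp1* (-0.030), *Slc4a5* (-0.87), *Steap1* (-0.49, with no adjusted *p*) and *Kmt2a* (0.14), which ranged from -0.169 to 0.105 when 1 library was left out. With ERCC scaling *Ido2* (-0.35), *Pnck* (-0.057) and *6330403K07Rik* (-0.28) turned. When 1 library was left out *Ido2* ranged from -0.0668 to 0.103 and *6330403K07Rik* from -0.0658 to 0.0633.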
